A study of Mus musculus with 59 samples.

Results

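The levels of 10 transcripts that encode enzymes of mitochondrial fatty acid β-oxidation were followed in embryoid bodies containing spinal motor neurons, after 24 h of exposure to mouse serum. The genes were chosen by symbol as Acadm, Acads, Acadl, Acadvl, Hadha, Hadhb, Hadh, Echs1, Acaa2 and Cpt1a, and all 10 were found among the 19613 genes of the deposited expression table. The study asked whether such cultured cells respond to serum in a way that tells mice that will develop amyotrophic lateral sclerosis (ALS) from healthy littermates before symptoms begin. Serum came from male mice hemizygous for a mutant human SOD1 transgene (G93A, 29 arrays, called carrier) or from their non-carrier littermates (30 arrays), on an F1 background of C57BL/6 and SJL. The labels put 53 arrays at 9 weeks and 6 at 10 weeks, all 6 from 1 run, so that age and run cannot be told apart. All cultures, with either serum, were differentiated from 1 mouse embryonic stem cell line, HBG3, written HGB3 in the study's text. The line carries a green fluorescent reporter of the motor neuron gene HB9. An embryoid body is a ball of differentiating cells in which motor neurons are a part only, and RNA of the whole ball was measured on Affymetrix mouse exon arrays. The labels do not say which arrays shared a serum donor, and p-values therefore measure the spread between arrays, part of which may be technical.

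β-oxidation shortens fatty acids in the mitochondrial matrix and releases acetyl-CoA for the tricarboxylic acid cycle. Cpt1a attaches long acyl chains to carnitine for transport into the mitochondrion, and this step is inhibited by malonyl-CoA. The acyl-CoA dehydrogenases then remove electrons from the chain, each preferring a length: Acadvl very long, Acadl long, Acadm medium and Acads short chains. Hydration, a further oxidation and cleavage follow, which the trifunctional protein of Hadha and Hadhb subunits carries out on long chains, and Echs1, Hadh and Acaa2 on shorter ones. The pathway is best known for supplying heart, muscle, liver and brown fat, whereas mature neurons are known to rely mainly on glucose and lactate, with fatty acids burned mostly by astrocytes. Its genes are known targets of the nuclear receptors PPARα and ERRα with the coactivator PGC-1α.

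The RefSeq table of promoters (build GRCm38.p6) held the 300 bases from 250 before to 50 after the start site for 9 of the 10 genes, and none for Acaa2. The 4 windows below are shown because Acadm, Hadha and Hadhb varied together between arrays and because Hadh and Echs1 had the lowest p-values for carrier serum. Capitals mark GGGCGG, the core of the GC box, and AGGTCA, the hexamer that nuclear receptors bind, in either orientation. Hadha and Hadhb lie head to head, and their windows share 228 bases, so that a single sequence shows most of the region between them.
Hadhb, chr5:30155003-30155302, plus strand: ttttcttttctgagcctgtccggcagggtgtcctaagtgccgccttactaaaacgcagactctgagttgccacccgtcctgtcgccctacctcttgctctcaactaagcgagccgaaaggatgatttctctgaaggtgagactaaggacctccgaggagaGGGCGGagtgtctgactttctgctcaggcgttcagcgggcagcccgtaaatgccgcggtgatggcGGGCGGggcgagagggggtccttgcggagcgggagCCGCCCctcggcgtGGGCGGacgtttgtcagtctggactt
Acadm, chr3:153944594-153944893, minus strand: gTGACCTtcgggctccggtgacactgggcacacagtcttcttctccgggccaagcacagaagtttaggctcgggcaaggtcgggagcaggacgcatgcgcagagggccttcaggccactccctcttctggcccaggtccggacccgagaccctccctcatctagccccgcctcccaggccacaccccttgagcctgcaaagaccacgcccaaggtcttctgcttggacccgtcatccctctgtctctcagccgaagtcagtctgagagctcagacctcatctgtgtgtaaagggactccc
Hadh, chr3:131272052-131272351, minus strand: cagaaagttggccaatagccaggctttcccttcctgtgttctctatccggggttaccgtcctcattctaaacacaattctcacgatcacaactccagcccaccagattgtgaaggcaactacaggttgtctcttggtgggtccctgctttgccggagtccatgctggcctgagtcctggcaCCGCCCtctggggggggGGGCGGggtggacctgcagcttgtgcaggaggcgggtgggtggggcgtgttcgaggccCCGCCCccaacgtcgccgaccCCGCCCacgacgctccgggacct
Echs1, chr7:140116372-140116671, minus strand: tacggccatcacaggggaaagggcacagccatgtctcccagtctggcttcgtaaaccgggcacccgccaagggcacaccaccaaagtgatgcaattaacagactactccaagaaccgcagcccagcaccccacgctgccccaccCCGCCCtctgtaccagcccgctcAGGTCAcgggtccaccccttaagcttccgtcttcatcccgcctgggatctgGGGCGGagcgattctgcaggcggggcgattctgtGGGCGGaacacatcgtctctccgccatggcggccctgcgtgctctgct
Searched on both strands, GGGCGG was present in 7 of the 9 windows (Acadl, Acads, Cpt1a, Echs1, Hadh, Hadha and Hadhb) and in 35.7% of the 32851 windows of the table. The only match of Hadha lies in the bases shared with Hadhb, so that 1 site counts for both windows. AGGTCA was present in 4 (Acadm, Acadvl, Cpt1a and Echs1) and in 16.3% of all windows. CCAAT was present in Cpt1a and Hadh, and in 37.4% of all windows. TGATGNAA, the amino acid response element, was present in Echs1 and in 3.97% of all windows. TCAAGGTCA, the ERR element, which contains AGGTCA, was in none of the 9 windows and in 0.423% of all windows. AGGTCANAGGTCA, the PPAR direct repeat, which also contains AGGTCA, was in none of the 9 and in 0.0396% of all windows. A match is a description of these letters, and no match says only that they are not in these windows.

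The arrays came from 9 runs of 4 to 11 arrays, as read from names and consecutive numbers in the titles, and each run held both sera. The letters A to F stand for the runs that have numbers and no name. Single arrays are numbered within each serum, in the order of deposit, and these array numbers are not the numbers in the titles. The motor neuron genes Mnx1 (HB9), Isl1, Lhx3 and Chat had mean log2 intensities of 8.87, 10.5, 9.06 and 9.04. Rows of olfactory receptors, genes not known to be used in these cells, had a median of 4.53 and a 95th percentile of 6.31. The means of Afp and Lep, which mark endoderm and fat cells, were below that percentile, at 4.95 and 4.96, but Apoa1 (7.62) and Foxa2 (7.40) of the endoderm list and Plin1 (7.40) of the fat cell list were above it. Every enzyme gene had a mean above it, the lowest being Acadl at 7.15. Intensities of different genes come from different probes, and the levels of the 10 genes were not ranked against each other. Carrier array 23, of run E, stood apart, with a median of its olfactory receptor rows of 5.001, whereas the other 5 arrays of run E lay between 4.44 and 4.58.

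Carrier serum changed none of the 10 genes past the threshold of 0.05 on the adjusted p (limma with the run as a block, Benjamini-Hochberg over all 19613 genes). In the same fit 1.65% of all genes were called lower and 0.683% higher. With unadjusted p, 4 of the 10 were under 0.05, Hadh, Echs1, Hadha and Cpt1a, all with lower values in carrier arrays, beside 8.68% of all genes on the lower and 12% on the higher side. The fitted difference was negative for 8 of the 10 genes, with a median of -0.037 on the log2 scale, whereas the median over all genes was 0.016. Several of these genes belong to gene sets that the study chose for its classifier on arrays of this series, so the list is not independent evidence of its direction. In embryoid bodies, fewer cells of a type and less RNA per cell cannot be told apart.

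**Figure D1:**
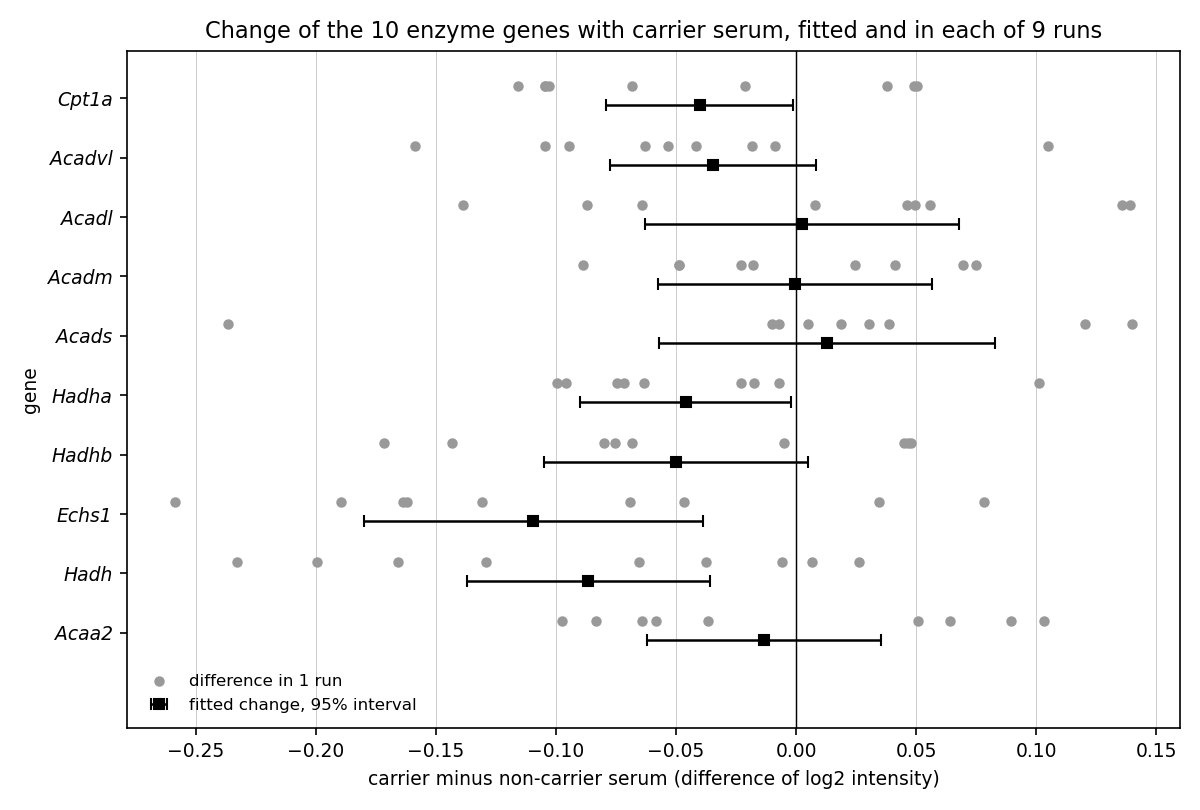
Difference of log2 intensity between carrier and non-carrier serum for the 10 genes. Black squares with bars are the fitted difference with its 95% interval over 59 arrays, and gray points are the differences in each of 9 runs. The intervals of Echs1, Hadh, Hadha and Cpt1a lie below 0 without adjustment, and every gene has runs on either side of 0.

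The direction followed the brightness of the genes across the whole table, so the members are set beside genes of like brightness. Carrier arrays had the lower value for 14.4% of the genes in the dimmest quartile of mean intensity, for 23.5% in the second, for 55.5% in the third and for 62.2% in the brightest. Of the 10 enzyme genes, 5 were in the brightest quartile, 4 in the third and Acadl in the second. An unadjusted p under 0.05 on the lower side was given to 18.2% of the brightest and 13.1% of the third quartile. The median of the olfactory receptor rows was higher with carrier serum in 8 of 9 runs, by up to 0.17 in run E and 0.17 in run F, and differed by -0.097 in run HB9MNs. With that median as a covariate, an alternative chosen after the data were seen, the difference became -0.060 for Hadh (adjusted p = 0.36) and -0.058 for Echs1 (adjusted p = 0.569), and it turned positive for Acadm, at 0.024, and negative for Acads, at -0.0013.

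Hadh, the dehydrogenase of short and medium hydroxyacyl chains, came closest to the threshold. Its level ran from 9.61 to 10.3 in carrier arrays, with a median of 9.96, and from 9.72 to 10.4 in non-carrier arrays, with a median of 10.02. These ranges overlap over most of their length. The fitted difference was -0.086 ± 0.025 (SE, n = 29 and 30), or -5.82% of the intensity with a 95% interval from -9.07% to -2.45%, and its adjusted p was 0.0506 (unadjusted 0.00121). It was lower with carrier serum in 7 of 9 runs. Its largest differences were in runs D, E, F and 10-week.

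In run D, the carrier arrays gave log2 intensities of 10.10, 9.84 and 10.14 for Hadh and the non-carrier arrays 10.26, 10.29, 10.24 and 10.24. In run F, the carrier arrays gave 9.68, 9.61 and 9.70 and the non-carrier arrays 9.72, 9.84 and 9.92. In the 10-week run, the carrier arrays gave 10.03, 10.02 and 9.90 and the non-carrier arrays 10.05, 10.19 and 10.09. In each of these 3 runs all carrier arrays were below all non-carrier arrays. In run E, the carrier arrays gave 10.16, 10.29 and 9.91 and the non-carrier arrays 10.26, 10.32 and 10.38, which overlap. The lowest of these was array 23, and the run's difference was -0.20 with it and -0.097 without it. In runs B, C and HB9MNs the difference of means was -0.0057, 0.0068 and 0.026.

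Echs1, the hydratase of short enoyl chains, had the largest fitted difference of the 10. Its level ran from 8.15 to 9.07 in carrier arrays, with a median of 8.66, and from 8.05 to 9.13 in non-carrier arrays, with a median of 8.78. The groups overlap almost wholly, and the runs differed by more than the sera. The fitted difference was -0.11 ± 0.035 (SE, n = 29 and 30), or -7.31% with a 95% interval from -11.7% to -2.65%, with an adjusted p of 0.0777 (unadjusted 0.00304), and it was lower in 7 of 9 runs.

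In run D, the carrier arrays gave log2 intensities of 8.57, 8.54 and 8.28 for Echs1 and the non-carrier arrays 8.59, 8.67, 8.66 and 8.69. In the 10-week run, the carrier arrays gave 8.66, 8.80 and 8.66 and the non-carrier arrays 8.87, 8.81 and 8.83. The sera did not overlap in these runs. In run E, the carrier arrays gave 9.00, 9.04 and 8.43 and the non-carrier arrays 9.13, 9.10 and 9.02, and the low value was again array 23. The difference in run E was -0.26 with that array and -0.064 without it. Without array 23 the fit over all runs gave -0.090 (adjusted p = 0.107) for Echs1 and -0.076 (adjusted p = 0.0724) for Hadh.

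**Figure D2:**
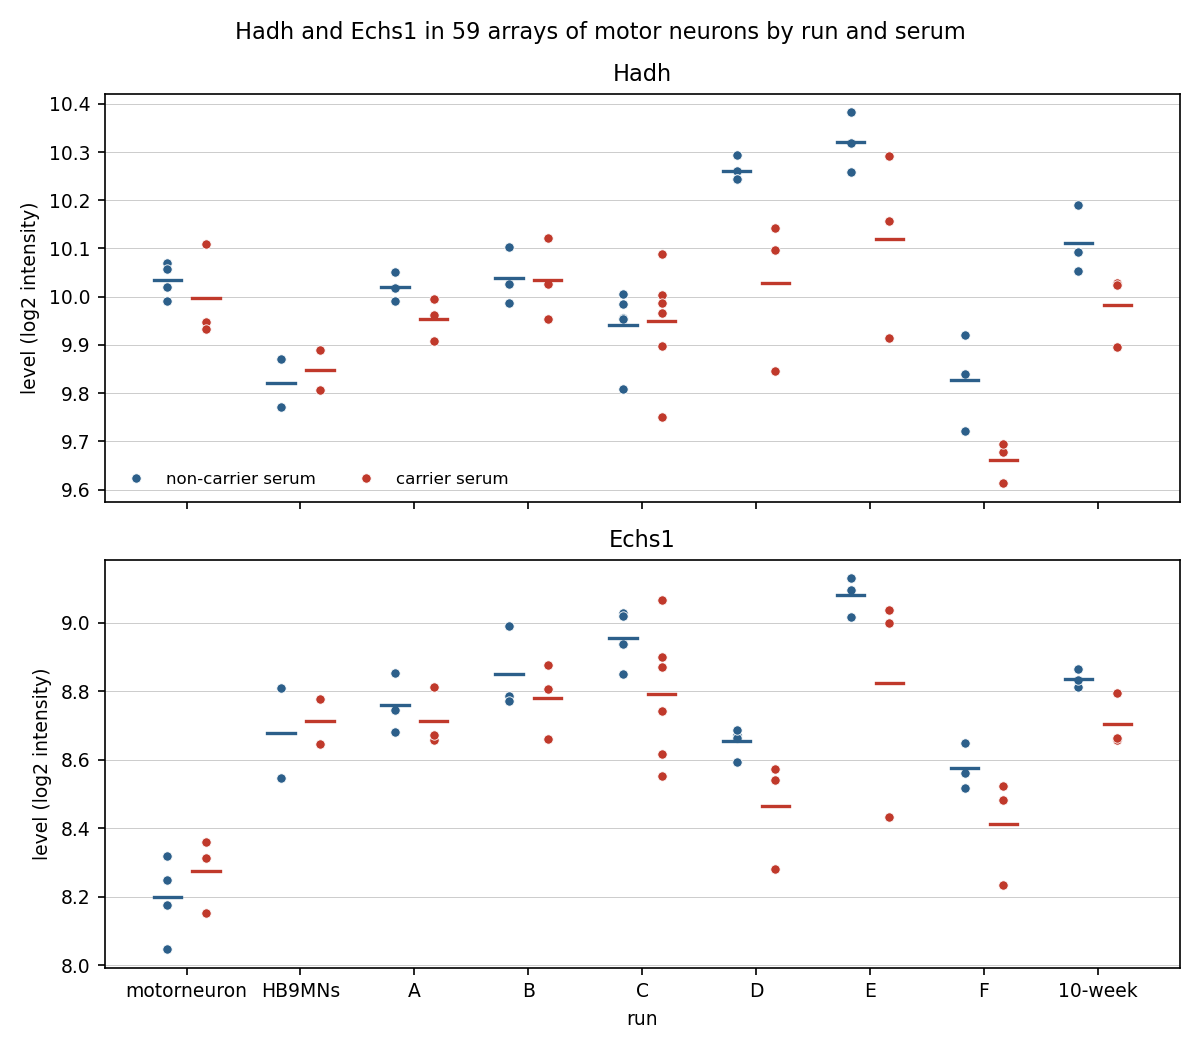
Log2 intensity of Hadh and Echs1 in each of 59 arrays, by run, with non-carrier serum in blue and carrier serum in red. Points are arrays and short lines are means of a serum in a run. Hadh shows separate sera in runs D, F and 10-week, and Echs1 in runs D and 10-week, while the level of Echs1 in the run motorneuron lies below that of most other runs with either serum.

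Hadh and Echs1 were near the threshold without passing it in the main fit, and their adjusted p moved with the processing. Over 16 alternatives, the adjusted p of Hadh ran from 0.00665 to 0.995 and passed the threshold in 6, and that of Echs1 ran from 0.0086 to 0.995 and passed it in 4. When Olig2, Mnx1, Isl1 and Lhx3, the 4 motor neuron genes of the study's batch correction, joined the run in the model, 5 enzyme genes were called lower, Acadm, Hadha, Hadhb, Echs1 and Hadh, and Acads higher, while 2172 of all genes were called lower and 3950 higher. In the main fit these 4 genes themselves differed by serum, by -0.085 ± 0.029, -0.035 ± 0.037, 0.053 ± 0.019 and -0.086 ± 0.030 (SE), none past the threshold. They were measured after serum exposure, and what their own differences add to these calls was not tested.

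Neither subunit of the trifunctional protein was called. Hadha, which holds the hydratase and long-chain dehydrogenase activities, ran from 9.17 to 9.73 in carrier and from 9.13 to 9.76 in non-carrier arrays, with a fitted difference of -0.046 ± 0.022 (SE, adjusted p = 0.22). It was lower in 8 of 9 runs, and the sera did not overlap in run F. Hadhb, the thiolase subunit, ran from 8.07 to 8.88 in carrier and from 7.85 to 8.94 in non-carrier arrays, with a difference of -0.050 ± 0.027 (SE, adjusted p = 0.284). Its sera did not overlap in run E, where carrier arrays reached at most 8.875 and non-carrier arrays were at least 8.879, nor in the 10-week run, where they were at most 8.42 and at least 8.44.

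Cpt1a, the entry step, had a difference of -0.040 ± 0.019 (SE, adjusted p = 0.228) with the smallest spread within runs of the 10 genes, an SD of 0.066. Its sera did not overlap in run A, with carrier arrays from 9.17 to 9.22 and non-carrier arrays from 9.27 to 9.32, nor in run F, from 9.17 to 9.21 and from 9.26 to 9.34. Cpt1a was lower with carrier serum in 6 of 9 runs and higher in the 10-week run, HB9MNs and C, by 0.050, 0.049 and 0.038. Acaa2, the thiolase of shorter chains, differed by -0.013 ± 0.024 (SE, adjusted p = 0.764), and was lower in 5 of 9 runs.

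None of the 4 acyl-CoA dehydrogenases had an unadjusted p under 0.05. Acadvl, for very long chains, differed by -0.035 ± 0.021 (SE, adjusted p = 0.339) and was lower in 8 of 9 runs, the exception being run C at 0.11. Without run C its difference was -0.067 (adjusted p = 0.0299), past the threshold. Acadm differed by -0.00033 ± 0.028, Acadl by 0.0026 ± 0.033 and Acads by 0.013 ± 0.035 (SE). Their 95% intervals reached from -3.90% to 4.01% for Acadm, from -4.27% to 4.83% for Acadl and from -3.87% to 5.93% for Acads, so that larger changes are outside the intervals of this fit.

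Within runs, carrier arrays lay wholly below non-carrier arrays in 14 of 90 pairs of gene and run, beside 9.03% of such pairs over all genes, and wholly above them in 0 of 90, beside 8.57%. These pairs were 3 for Hadh, 2 each for Acadvl, Hadhb, Echs1 and Cpt1a, and 1 each for Acadm, Acadl and Hadha, while Acads and Acaa2 had 0. The 10-week run held 5 of them. Acadvl, Hadha, Echs1 and Hadh were lower in at least 7 of 9 runs, as were 13.8% of all genes. The shares over all genes include the dim genes, most of which were higher with carrier serum. Shares among genes of like brightness were not computed for these counts. The carrier effect did not differ between runs past the threshold for any of the 10 (limma F test of the serum by run terms), and 0.127% of all genes passed. The lowest unadjusted p of that test was 0.0785, for Acadvl, and thus 0 of the 10 were under 0.05 without adjustment.

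Runs differed far more than sera. The run effect passed the threshold for 10 of 10 genes, as it did for 94% of all genes (limma F test). Run accounted for between 48.5% (Acads) and 86.6% (Cpt1a) of a gene's variance. The distance from the lowest to the highest run mean was 0.28 for Acadvl, or 1.22-fold, and 0.76 for Hadhb, or 1.69-fold. For comparison, the largest fitted serum difference was that of Echs1, -0.11.

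Run E had the highest mean for 7 of the 10 genes, Acadm, Hadha, Hadhb, Echs1, Hadh, Acaa2 and Cpt1a, beside 13.9% of all genes. Acads was highest in the run motorneuron, Acadl in run B and Acadvl in run C. The run motorneuron had the lowest mean for Acadm, Hadha, Hadhb and Echs1, beside 16.6% of all genes, and the run HB9MNs for Acadl, Acadvl, Acaa2 and Cpt1a, beside 9.15%. Among genes of the third and the brightest quartile, run E was highest for 20.8% and 16.4%, and the run motorneuron lowest for 25.9% and 32.96%. Olfactory receptor rows had their highest run mean in the run motorneuron, at 4.84, and the other runs lay between 4.45 and 4.61. With each array centred on its median, run E was highest for 8 of the 10 genes, beside 20.98% of all genes, and the run motorneuron lowest for 7, beside 27.5%.

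Cpt1a separated the runs best. Its run means ran from 8.94 in HB9MNs and 8.99 in motorneuron to 9.38 in the 10-week run and 9.57 in run E, and 4 of the 8 steps between neighbouring runs passed the threshold. Acadm, Hadha, Hadhb and Echs1 each had 1 such step of 8, and for Acads, Acadl, Acadvl, Hadh and Acaa2 none passed, so that runs next to each other in their order did not differ beyond the spread between arrays. For Hadhb, run E stood at 8.88 and the next run, C, at 8.45.

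Runs E and F were numbered next to each other and were compared directly. Of the 10 genes, 7 were higher in run E past the threshold, beside 18.2% of all genes. They are the 7 whose highest run mean was in run E, so this comparison is not independent of that result. The difference, E minus F, was 0.56 for Hadhb (adjusted p = 2.00e-10), 0.48 for Hadh (1.84e-09), 0.46 for Echs1 (4.25e-06), 0.32 for Cpt1a (3.71e-08), 0.28 for Acaa2 (3.73e-05), 0.26 for Acadm (0.000689) and 0.15 for Hadha (0.00851). Acads, Acadl and Acadvl differed by -0.022, 0.064 and -0.012, with adjusted p of 0.832, 0.481 and 0.853. Of the 8 measured motor neuron markers, 3 were lower in run E in the same test, Lhx3 at -0.27 (adjusted p = 0.000824), Mnx1 at -0.23 (0.0158) and Chat at -0.18 (0.00141), and the mean of the 8 was 9.41 in run E and 9.47 in run F. The list of radial glia and astrocyte markers stood at 8.06 in E and 8.29 in F. The lists of pluripotent, cardiomyocyte, skeletal muscle and adipocyte markers were lowest in run E and highest in the run motorneuron. The skeletal muscle list stood at 6.36 in E, 6.77 in F and 7.23 in motorneuron. All run means of the pluripotent and adipocyte lists lay below the 95th percentile of the olfactory receptor rows (6.31). Other lists had another order. The neural progenitor list stood at 8.811 in E and 8.795 in F, and was highest in run B. The endoderm list was lowest in run C and highest in motorneuron, and the endothelial list lowest in run C and highest in the 10-week run. Over the whole table, 30.8% of genes had their lowest run mean in run E and 48.9% their highest in the run motorneuron. The part of cell makeup in the run differences was not tested.

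**Figure D3:**
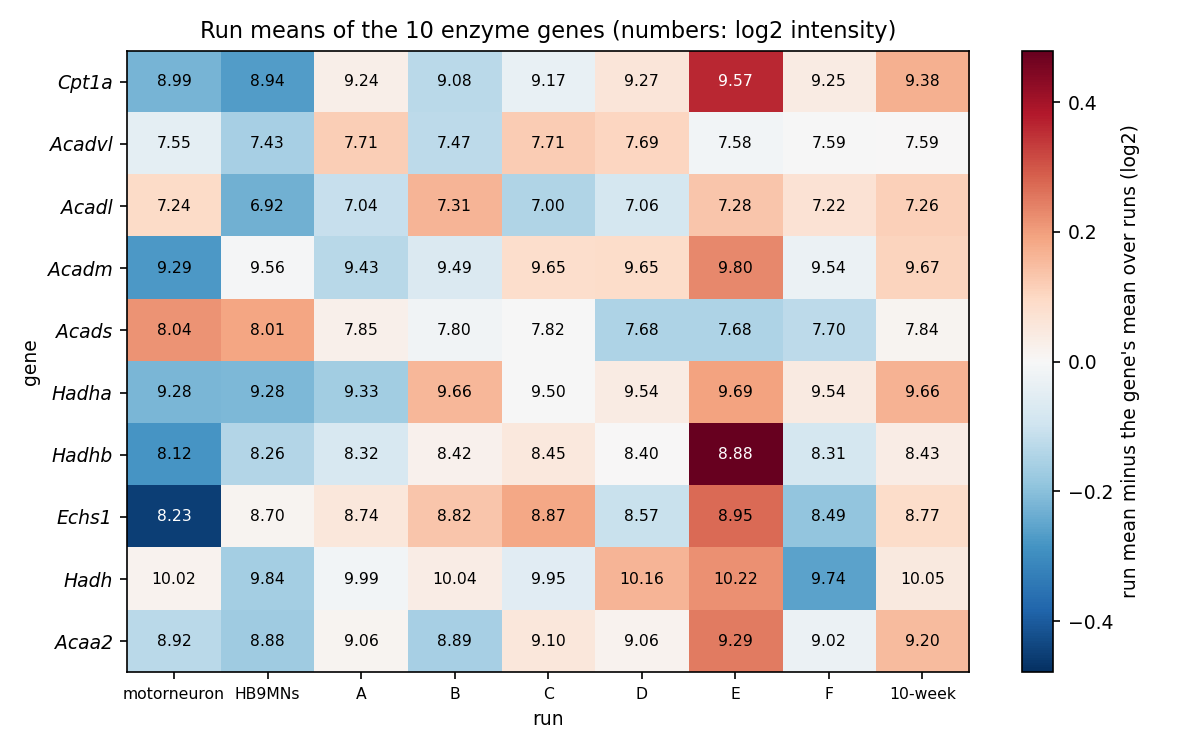
Mean log2 intensity of the 10 genes in each of 9 runs, with the number in each cell and the color giving the distance from the gene's mean over runs. Run E is red for 8 of the genes, most for Hadhb at 8.88, and the run motorneuron is the bluest for Acadm, Hadha, Hadhb and Echs1, whose lowest run mean it holds.

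Once the mean of each run and serum was removed, the genes did not vary as 1 group between arrays. Of 45 pairs, 31 had a positive Pearson's r over 59 arrays, with a median of 0.12. Acadm, Hadha and Hadhb varied together, with r of 0.81 for Acadm and Hadhb, 0.78 for Acadm and Hadha and 0.77 for Hadha and Hadhb, and Spearman's rho of 0.71, 0.75 and 0.68. Leaving out the 2 arrays farthest from the median of the first gene gave 0.75, 0.75 and 0.70, and removing the olfactory receptor median as well as run and serum gave 0.79, 0.76 and 0.72. Hadha and Hadhb were positively correlated within 9 of 9 runs. Only 18 of 19612 other genes had a higher r with Hadha than Hadhb did, whereas 208 had a higher r with Hadhb than Hadha did. These arrays share probes, scanning and cultures, and the values are a description without a test.

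Echs1 and Acaa2 formed another pair, with r of 0.72 (rho 0.70, and 0.69 without the 2 farthest arrays), positive in 9 of 9 runs. Hadh and Cpt1a had weak correlations with all the others, with r between -0.14 with Acadm and 0.16 with Echs1 for Hadh, and between -0.13 with Acadvl and 0.21 with Acaa2 for Cpt1a. Acads varied against both subunits of the trifunctional protein, with r of -0.56 with Hadhb and -0.38 with Hadha, and against Acadm, with r of -0.47. Outside the 10, the genes most like their mean after removal of run and serum were Exosc1 (r = 0.81), Laptm4b (0.79), 1110057K04Rik, written X1110057K04Rik in the table (0.78), Bub3 (0.77) and Sdhd (0.76), none of which was called for carrier serum.

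**Figure D4:**
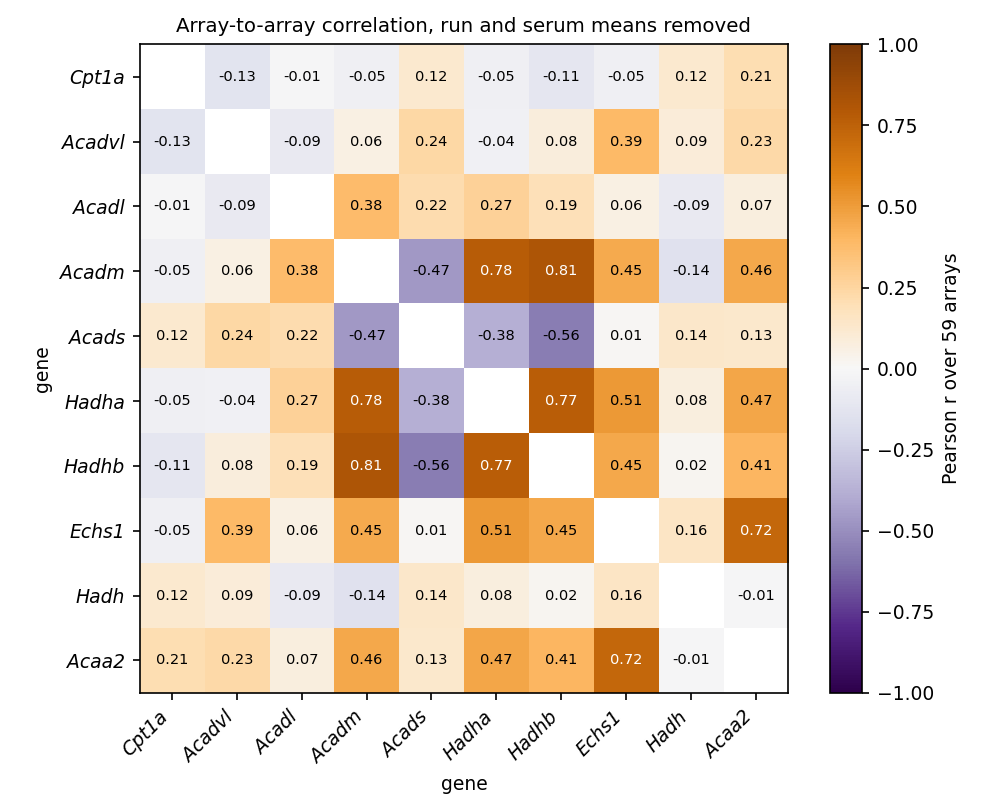
Pearson's r between the 10 genes over 59 arrays after the mean of each run and serum was subtracted, with r written in each cell. Acadm, Hadha and Hadhb form a block of r from 0.77 to 0.81, Echs1 pairs with Acaa2 at 0.72, and Acads is negative with Hadhb at -0.56.

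Of the further genes around the pathway, all but Oxct1 and Hsd17b8 were measured, and 2 were called lower (1.96%) and 3 higher (2.94%) with carrier serum, beside 1.65% and 0.683% of all genes. In the third quartile of brightness 2.57% of genes were called lower and 0.51% higher, and in the brightest 3.51% and 1.04%. Cpt1c, a brain form of the carnitine palmitoyltransferase, fell by 0.065 ± 0.018 on the log2 scale (SE, adjusted p = 0.0401). Fh1, the fumarate hydratase of the tricarboxylic acid cycle, fell by 0.12 ± 0.034 (SE, adjusted p = 0.0474). With the olfactory receptor covariate the differences were -0.052 and -0.078 and neither was called (adjusted p of 0.239 and 0.372). Acsl4, an acyl-CoA synthetase that prefers arachidonic acid, rose by 0.13 ± 0.027 (SE, adjusted p = 0.00567) and was higher in 9 of 9 runs. Prkaa2, a catalytic subunit of AMP-activated kinase, which inactivates the enzymes that make malonyl-CoA, rose by 0.098 ± 0.022 (SE, adjusted p = 0.00924). Elovl6, an elongase of fatty acid synthesis, rose by 0.088 ± 0.023 (SE, adjusted p = 0.025). With the olfactory receptor covariate Elovl6 was not called either (limma, adjusted p = 0.0874), while Acsl4 and Prkaa2 still were (0.0105 and 0.0278). When each of the 9 runs was left out in turn, Acsl4 passed the threshold in 9 fits, Prkaa2 in 8, Elovl6 in 4, Fh1 in 3 and Cpt1c in 2. The highest adjusted p of Cpt1c, Fh1, Prkaa2 and Elovl6 came without run D (0.141, 0.213, 0.0727 and 0.149). Over the 16 alternatives the call held in 12 for Acsl4 and Prkaa2, in 9 for Elovl6 and Cpt1c and in 8 for Fh1.

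Over all genes 38.9% of the differences were negative and 61.1% positive, and the sign went with brightness as given above. By role, the tricarboxylic acid cycle had 15 of 16 genes with a negative difference, 1 of them called (Fh1), with a median of -0.033. A list of genes for mitochondrial mass had 4 of 5 negative and 0 called, with a median of -0.051 and Vdac1 at -0.073 (adjusted p = 0.0737). The carnitine shuttle had 5 of 6 negative with 1 called (Cpt1c), and Cpt2 of the inner membrane differed by -0.052 (adjusted p = 0.313). The electron transfer flavoprotein and its dehydrogenase had 3 of 3 negative and 0 called, and the auxiliary enzymes for unsaturated and branched chains 7 of 8 negative and 0 called, with Eci2 at -0.088 and Decr1 at -0.085 (adjusted p of 0.0756 and 0.105). Cytosolic fatty acid synthesis had 5 of 6 positive with 1 called (Elovl6), and Scd1, the stearoyl-CoA desaturase, differed by 0.10 (adjusted p = 0.0765). The regulators PPAR, ERR and PGC-1 had 5 of 7 positive and 0 called, with Ppara at 0.10 (adjusted p = 0.0882) and Pparg at 0.091 (0.193). The mean of Pparg, 5.61, was below the 95th percentile of the olfactory receptor rows (6.31). Peroxisomal β-oxidation was split, 6 of 11 negative and 0 called, with a median of -0.0091.

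**Figure D5:**
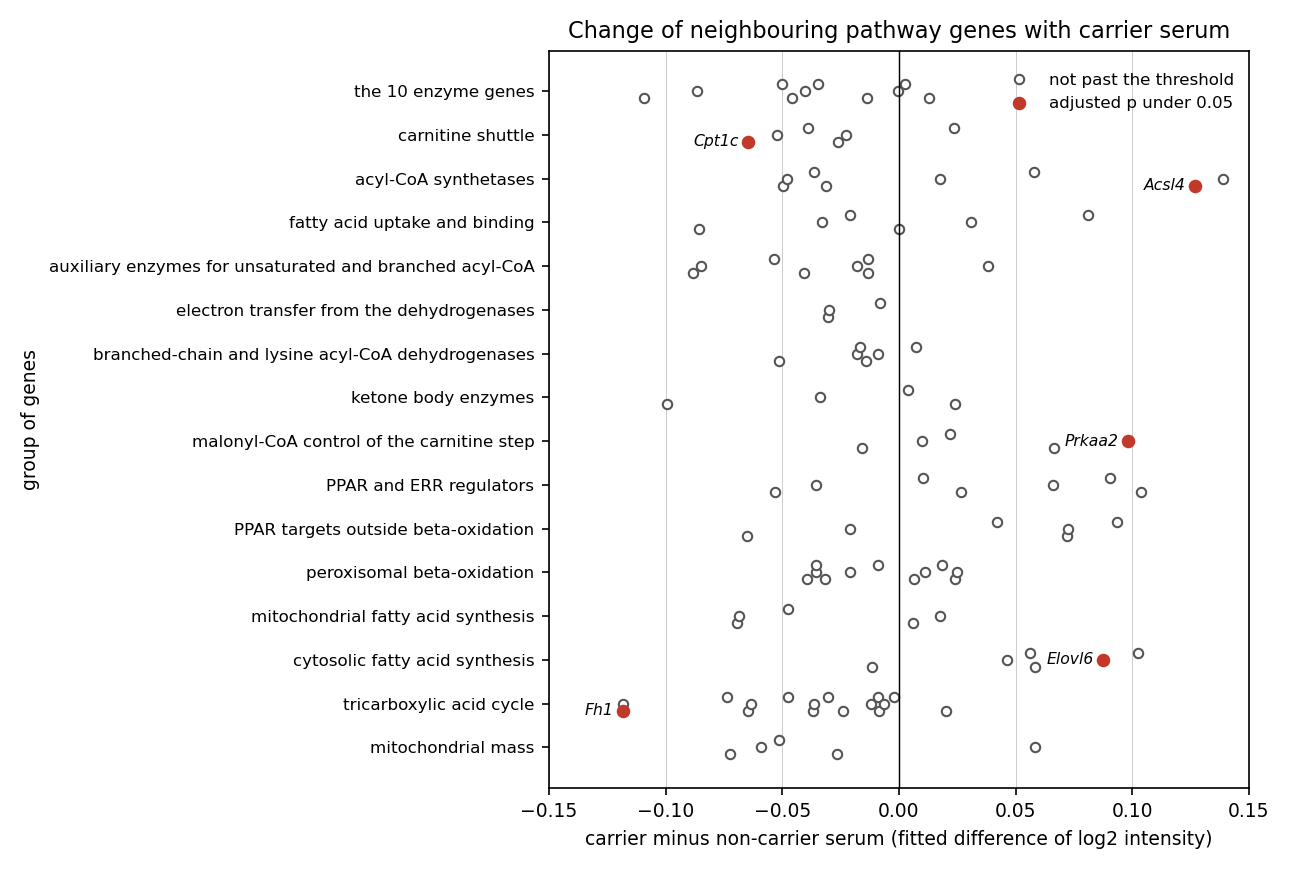
Fitted difference of log2 intensity between carrier and non-carrier serum for the 10 enzyme genes and further genes by role. Filled red points have an adjusted p under 0.05 over all genes and open points do not, and only Cpt1c, Fh1, Acsl4, Prkaa2 and Elovl6 are filled.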

How the data were processed

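RNA of embryoid bodies exposed to serum was hybridized to mouse exon arrays, 29 with carrier and 30 with non-carrier serum. The deposited table holds linear intensities per gene symbol. The authors averaged the exons of each gene after robust multi-array averaging (RMA) in aroma.affymetrix, with all arrays normalized together once outlying arrays (Grubbs' test) had been removed. The submitters' processing notes name Affymetrix Expression Console and RMA, and the genome build was not given in the sources used here. RMA sets arrays on 1 distribution of probe signals before exons are averaged, which affects small differences between arrays.

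Log2 intensities, with 0 added, entered a linear model of serum and run (lmFit, then eBayes; limma 3.58.1, R 4.3.3), and the two-sided p-values of all 19613 genes were adjusted by Benjamini and Hochberg's method. No gene was filtered out, and 0 columns belonged to other series. The number of arrays limits the precision. Runs came from the titles, since the labels name no batch, and run C, with 11 arrays, likely holds more than 1 batch. The same model with run by serum terms gave the test between runs. No pair of arrays held the same values. A 4-gene batch correction of the study's kind was an alternative. It was fitted on all 30 non-carrier arrays, whereas the study fitted its own on fewer non-carrier assays. The procedure was tested on simulated data.

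The 10 genes and all lists were chosen with earlier results of these data known. The genes named are the 10, the called genes of the related lists, at most 2 others per role by size of change, and the 5 genes most like the mean of the 10. Some symbols of the lists were not matched (Oxct1 and Hsd17b8 of the related, and Slc18a3, Slc1a3, Myh6 and Hba-a1 of the marker lists). A further marker list is not reported here. Promoters were read from a RefSeq table.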

Additional observations from a re-analysis of the deposited data

Results flagged for a closer look

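Within a run, 40 groups of a gene and a serum with 4 to 10 arrays were searched for a single array far from the others, which chance finds in about 5% of groups, and 2 were found, both among the 5 non-carrier arrays of run C. For Acads, non-carrier array 14 had a log2 intensity of 8.10, whereas the other 4 arrays lay between 7.69 and 7.78, and its gap was 0.786 of the group's range (critical value 0.71). For Hadh, non-carrier array 13 had 9.81, whereas the other 4 lay between 9.95 and 10.01, and its gap was 0.735 of the range. Both array numbers are counts within the serum and not the numbers in the titles. The median of the olfactory receptor rows was 4.68 in array 14, the highest of run C, and 4.35 in array 13, and their part in these values was not tested. Without array 14 the fitted serum difference of Acads was 0.025 (limma, adjusted p = 0.647), and without array 13 that of Hadh was -0.094 (adjusted p = 0.0317), past the threshold.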

How the results depend on the processing

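The cause of the changes below was not tested, apart from fewer arrays or genes where a setting leaves some out. The number of arrays limits all of them. Without the run block, 0 genes were called lower and 0 higher (limma, unadjusted p under 0.05 for 386 and 419), and the difference was 0.0090 for Acadm and -0.0028 for Acadl. The run as a random block gave 0.00040 for Acadm. Parting run C gave 206 genes higher and called 2 enzyme genes lower, Echs1 (-0.11) and Hadh (-0.086). The 4 motor neuron genes in the model gave 2172 genes lower and 3950 higher and called 5 enzyme genes lower and 1 higher, Acadm (-0.088), Hadha (-0.095), Hadhb (-0.11), Echs1 (-0.10), Hadh (-0.077) and Acads (0.12). A correction of the study's kind with no run block gave 82 lower and 20 higher, and Acaa2 at 0.015. Centring on the array median gave -0.0048 for Acadl, and quantile normalization 0.016 for Acadm and -0.00026 for Acadl. Adding 16 before the log called 1 enzyme gene lower, Hadh (-0.085). Leaving out genes under the median intensity gave 510 lower and called 2 enzyme genes, Echs1 (-0.11) and Hadh (-0.086), and Acadl was left out there. An intensity trend called 1, Hadh (-0.086). Array weights gave 1440 lower and 1363 higher, called 3 enzyme genes, Hadhb (-0.059), Echs1 (-0.094) and Hadh (-0.083), and gave -0.0098 for Acadl. Runs E and F alone gave 17 lower and 0 higher (unadjusted p under 0.05 for 937 and 1583), and Acads at -0.048. Without runs E and F, 32 were lower and 27 higher, with Acadm at 0.012 and Acadl at -0.0050. The olfactory receptor median in the model gave 78 lower and 43 higher, Acadm at 0.024 and Acads at -0.0013. Robust empirical Bayes changed no call of the 10. The run effect (10 of 10) and the difference between runs (0 of 10) were the same with centred and with quantile-normalized arrays.

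Leaving out 1 array or 1 run at a time gave 81 to 918 genes lower, 22 to 683 higher and 0 to 2 enzyme genes called lower. The lowest counts came without run D (81) and without the 10-week run (22), and the highest without run C. The difference ran from -0.11 to -0.067 for Hadh, from -0.13 to -0.090 for Echs1, from -0.067 to -0.021 for Acadvl, from -0.011 to 0.0097 for Acadm, from -0.0014 to 0.042 for Acads, from -0.015 to 0.035 for Acadl and from -0.029 to 0.0057 for Acaa2. Hadh passed the threshold without the run motorneuron, HB9MNs or C, without non-carrier array 1, 4, 6, 11, 13, 14 or 17 and without carrier array 3, 5, 9, 12, 13, 14, 16, 17 or 22. Echs1 passed it without the run motorneuron, without non-carrier array 1 or 5 and without carrier array 14, and Acadvl without run C.

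Replicate numbers in the titles, or letters in the run HB9MNs, are shared between sera in 3 runs. For arrays that share one, r of their deviations over genes ran from -0.13 to 0.33. Of 16 such arrays, 9 correlated best with their own number or letter. In HB9MNs, with 2 arrays per serum, both pairs had the same r of 0.063, so its arrays do not count separately. The numbers and letters were not taken as pairing the arrays. With a replicate block the fit gave 340 genes lower and 173 higher, with Acadm at 0.0081, Acads at -0.00057 and Acadl at -0.0050, and called 0 of the 10 (Hadh at an adjusted p of 0.0586).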
